A study of Homo sapiens with 4 samples.

Results

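The adrenomedullin peptides and their receptors were examined in TE5, a human oesophageal squamous cell carcinoma line, by bulk RNA sequencing. The 7 members are ADM, ADM2 and CALCB, which encode peptides, and CALCRL, RAMP1, RAMP2 and RAMP3, which encode receptor parts. They were taken by gene name from 55764 genes, and the group was selected on the measured rise of ADM2 in FPKM, one of the largest in the comparison described here. The levels of ADM2 are therefore given as a description and without a test. The 2 ETS1 libraries came from cells stably carrying a lentiviral vector in which a CMV promoter drives human ETS1, a transcription factor, and the 2 control libraries came from cells carrying the empty backbone, labelled WT. The libraries are numbered 1 and 2 in each group, and nothing says that they came from separate cultures or infections, so the p-values measure only the spread between these libraries.

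Adrenomedullin, adrenomedullin 2 (also called intermedin) and the calcitonin gene-related peptides (CGRP) are secreted peptides of the calcitonin family. They share a G protein-coupled receptor, the product of CALCRL, which reaches the cell surface only with a RAMP, a single-pass membrane protein that also sets which peptide binds best. With RAMP1 the pair is the CGRP receptor, and with RAMP2 or RAMP3 it is an adrenomedullin receptor; signalling runs mainly through the stimulatory G protein and cyclic AMP. Adrenomedullin is known as a vasodilator that hypoxia induces, and the receptor is best known from blood and lymphatic endothelium.

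Levels are in FPKM, fragments scaled by gene length and by library depth, so they can be set side by side between genes where the gene lengths used hold. The controls held 40356723 and 44119604 reads, recovered from these values, while the ETS1 libraries held 57269984 and 56502875 and were thus 1.35 times deeper on average. ETS1 itself was at 0.491 and 0.509 FPKM in the controls and at 1.84 and 1.87 FPKM in the ETS1 libraries. These values are scaled over a gene length of 7139 bases, and they do not separate the vector transcript from the cells' own. Changes were tested with limma on log2(FPKM + 1) over the 14306 genes with a mean of at least 1 FPKM, a scale that understates the change of genes with low FPKM. At a Benjamini-Hochberg adjusted p of 0.05, 59.1% of these genes were called, 30.7% as higher and 28.4% as lower in the ETS1 libraries, and lower calls outnumbered higher ones under 4 of 11 alternatives. Of the squamous markers, KRT4 was at 0 FPKM in all 4 libraries, KRT5, KRT14, KRT6A and TP63 were at 0 in both controls, and the highest of these 5 genes in any library was KRT5 at 0.0165 FPKM. The defining keratins of squamous epithelium were thus at or near 0 in cells labelled as squamous carcinoma. The 2 squamous markers that reached the filter both rose: PERP, a desmosome-associated protein, by 0.28 from 38.4 and 35.8 to 45.4 and 45.3 FPKM, and SOX2, a transcription factor, by 0.25 from 2.72 and 3.13 to 3.52 and 3.82 FPKM (limma adjusted p 0.004 and 0.0301). The summed squamous markers were at 41.2 and 39.0 FPKM in the controls and 49.0 and 49.2 FPKM with ETS1, most of it PERP, and KRT13 had a mean of 0.0934 and then 0.0572 FPKM. Of the 8 general epithelial markers 4 were tested, with 2 called higher and 1 lower. SPINT2, a protease inhibitor, rose by 0.91 and KRT8, a simple epithelial keratin, by 0.62, while its partner KRT18 fell by 0.29 from 10.2 and 10.5 to 8.35 and 8.29 FPKM (limma adjusted p 0.000482, 0.000591 and 0.00223). EPCAM, an adhesion molecule, did not pass (change -0.23, limma adjusted p 0.0525), and of the untested ones CDH1 had a mean of 0.569 and then 0.998 FPKM and CLDN4 of 0.647 and then 0.319 FPKM. Of the leukocyte, fibroblast and neuronal markers, COL1A1, a collagen, rose by 0.30 and SYP, a synaptic vesicle protein, fell by 0.66 (limma adjusted p 0.00599 and 0.000524). COL1A1 went from 2.17 and 2.06 to 2.81 and 2.88 FPKM, and SYP from 8.04 and 7.83 to 4.63 and 4.66 FPKM. RBFOX3, a neuronal marker that was not tested, had a mean of 0.693 and then 0.358 FPKM. PTPRC, the pan-leukocyte marker, was at most at 0.0117 FPKM. Of 10 endothelial markers 9 were found, with CDH5 and LYVE1 at 0 in both controls and nowhere above 0.00593 FPKM. FLT4 held most of their sum, with a mean of 13.2 FPKM in the controls, and it fell to a mean of 10.9 FPKM with ETS1 (limma adjusted p 0.0034). The other 2 endothelial markers tested, PROX1 (mean 1.01 and then 1.2 FPKM) and ESAM (1.25 and then 1.32 FPKM), did not pass, and VWF, KDR, TEK and CLDN5 had higher means with ETS1, none above 0.209 FPKM. The part of other cell types in the results was not tested.

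Of the 7 members, 5 passed the filter on low values: CALCB, ADM, ADM2, RAMP1 and RAMP2. CALCRL and RAMP3 did not. Leaving aside ADM2, which was picked for its rise, 4 of 4 tested members were called higher, where 30.7% of all tested genes were. In each of these 4 both ETS1 values lay above both control values, as they did for 43.1% of the genes tested. These shares are given side by side only, since the group was selected on this contrast and a member passes the filter more readily where it is high. ADM and CALCB lay close to the threshold and lost it under several other settings, while RAMP1 and RAMP2 kept it under all alternatives in which they could be tested.

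**Figure D1:**
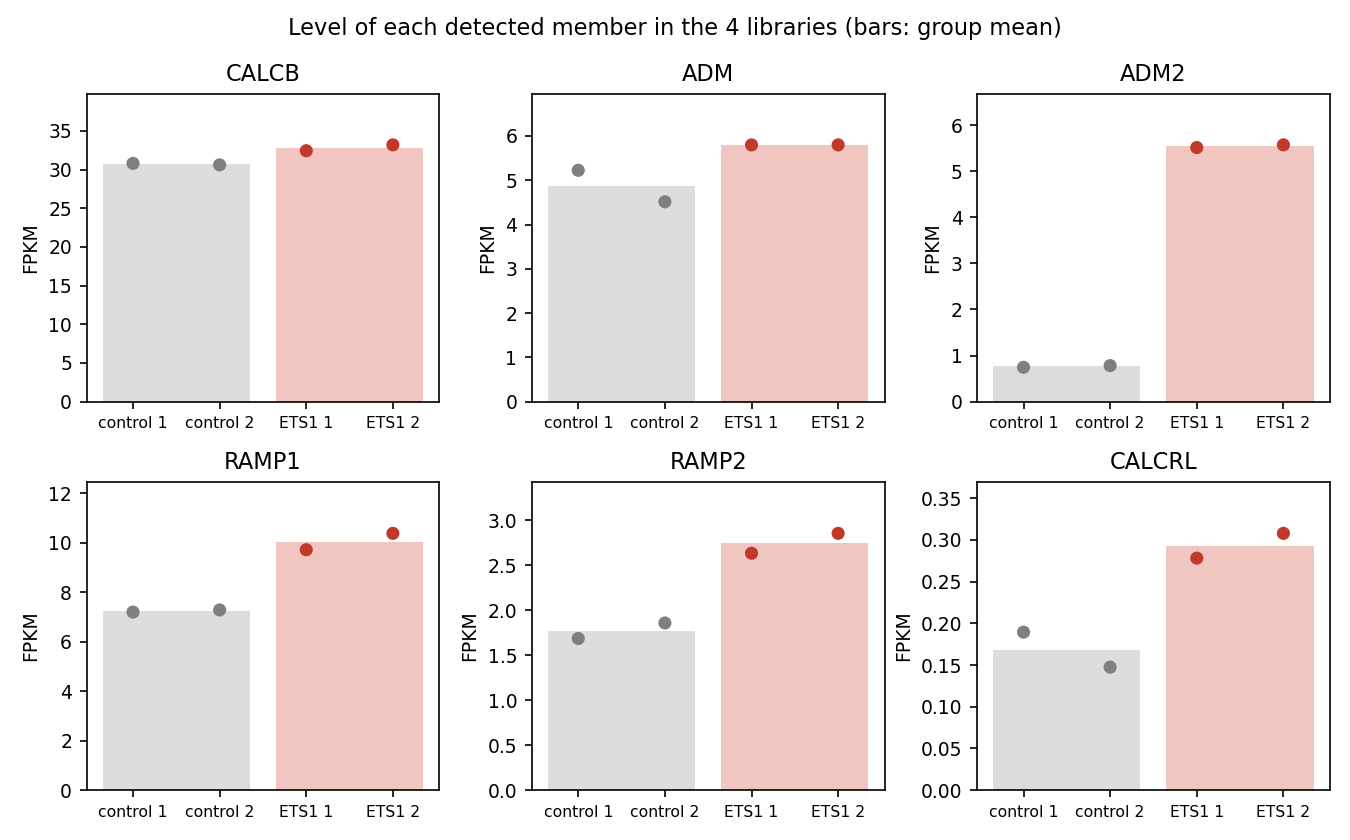
Level in FPKM (y axis, from 0, a separate scale for each gene) of the 6 detected members in the 2 control and 2 ETS1 libraries (x axis); points are libraries and bars are group means. ADM2 went from below 1 FPKM in both controls to above 5 FPKM in both ETS1 libraries, CALCB stayed between 30.6 and 33.2 FPKM, and no gene's groups overlapped. Both ETS1 values lay above both control values in 43.1% of all genes tested. ADM2 was picked for its rise, and CALCRL was under the filter. RAMP3, at 0 in each library, is not drawn.

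The peptide genes are described first. ADM2 (chromosome 22, 50481556 to 50486440, plus strand, GENCODE 29 on GRCh38) encodes adrenomedullin 2, a peptide that binds CALCRL with any of the RAMPs. It was at 0.745 and 0.782 FPKM in the controls, from 129 and 148 reads, and at 5.51 and 5.57 FPKM in the ETS1 libraries, from 1355 and 1351 reads. Both ETS1 libraries stood far above both controls, and the 2 libraries of each group were close together. The group means were 0.764 ± 0.0261 and 5.54 ± 0.0412 FPKM (SD, n = 2 each), a ratio of 7.26. This is a difference of 1.89 (standard error 0.047) in log2(FPKM + 1), rank 8 among the rises of the 14306 genes in the fit, on this scale. Voom on the recovered reads, which adds no pseudocount of 1 FPKM, gave 2.85 with a standard error of 0.10, and 2.82 (standard error 0.13) stands in the authors' deposited table.

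The sequence before the ADM2 start is shown because ADM2 is the member with the largest change and the overexpressed protein binds DNA through the ETS core GGAA. It holds 250 bases upstream of the RefSeq start on GRCh38.p14, chr22:50481293-50481542, plus strand, with the GGAA match in capitals.
ADM2 upstream: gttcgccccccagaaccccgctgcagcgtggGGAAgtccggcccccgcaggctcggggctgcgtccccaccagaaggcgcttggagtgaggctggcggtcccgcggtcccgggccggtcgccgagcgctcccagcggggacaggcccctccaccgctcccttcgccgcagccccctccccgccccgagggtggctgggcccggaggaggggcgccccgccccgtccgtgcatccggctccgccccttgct
GGAA, searched on both strands, occurred 1 time, from position -219 to -216 relative to the start, and 92.7% of the 35116 RefSeq promoter windows of this length hold at least 1. The longer letters CGGAAG (16.5% of windows), the hypoxia response core ACGTG (18.5%), the cyclic AMP response element TGACGTCA (1.65%) and the ATF4 composite element TGATGNAAT (0.888%), each on both strands, were not in this window. CGGAAG contains GGAA, and so does TGATGNAAT where N is G. The RefSeq table holds windows for 4 of the 7 members. In the same length before the RefSeq start, ADM had 5 GGAA matches, a number that 18.6% of windows reach, CALCRL had 3 (55.1% of windows) and RAMP3 had 0, and none of the other 4 motifs matched in these 3 windows. A match is a run of letters and no measured binding site.

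The genes beside ADM2 were compared with it. SBF1, on the opposite strand 6532 bases before ADM2, was at 12.7 and 13.3 FPKM in the controls and 16.3 and 16.2 FPKM in the ETS1 libraries, and it rose by 0.30 on the log2 scale (limma adjusted p 0.00245). LMF2, the second gene after ADM2, rose by 0.18 (limma adjusted p 0.00603), from 36.6 and 35.7 to 40.7 and 41.6 FPKM. PPP6R2, the second gene before it, changed by 0.084 and did not pass (limma adjusted p 0.155). MIOX, myo-inositol oxygenase, starts 344 bases after the end of ADM2 on the same strand. It was at 0.0553 and 0.0632 FPKM in the controls, from 4 and 5 reads, and at 0.321 and 0.227 FPKM in the ETS1 libraries, from 33 and 23 reads, so its groups did not overlap, and it was under the filter and not tested. The group means of MIOX were 0.0593 and 0.274 FPKM.

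The tested genes whose values over the 4 libraries lay closest to those of ADM2 were CCL20, TENM1, ABCC3, DTX3 and VAMP8. The measure was the Euclidean distance between log2(FPKM + 1) values, each gene centred on its mean, and with 4 libraries in 2 groups it ranks little more than the size of the change on this scale. The closeness depends on the pseudocount of 1 FPKM: by voom on recovered reads the changes were 5.6 for CCL20, 6.12 for TENM1, 2.24 for ABCC3, 2.38 for DTX3 and 2.10 for VAMP8, beside 2.85 for ADM2. The distances were 0.0467 for CCL20, a chemokine, 0.0484 for TENM1, a teneurin, 0.0731 for ABCC3, an export transporter, 0.0881 for DTX3, a ubiquitin ligase of the deltex family, and 0.188 for VAMP8, a vesicle fusion protein. Their levels differed widely. CCL20 was at 0.0371 and 0.0679 FPKM in the controls and 2.80 and 3.01 FPKM in the ETS1 libraries, while VAMP8 was at 3.66 and 3.03 against 14.2 and 14.2 FPKM.

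ADM (chromosome 11, 10304680 to 10307397, plus strand) encodes adrenomedullin, the preferred ligand of the RAMP2 and RAMP3 receptors. It was at 5.22 and 4.51 FPKM in the controls, from 575 and 543 reads, and at 5.80 and 5.80 FPKM in the ETS1 libraries, from 906 and 894 reads. The ETS1 values lay above both controls, and the controls differed from each other by a ratio of 1.16, close to the ratio of 1.19 between the group means. In log2(FPKM + 1) the change was 0.21 (standard error 0.066), with limma adjusted p 0.042. Over 11 alternatives the adjusted p ran from 0.00825 to 0.14, and 6 of them ended the call. Without control library 2 the change was 0.13 (limma adjusted p 0.074), and without control library 1 it was 0.30 (limma adjusted p 0.00825). With the replicate number as a block the limma adjusted p was 0.0506, and the authors' deposited table gives 0.0775.

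Genes beside ADM were compared in the same way. SBF2, 10473 bases before ADM on the opposite strand, was at 1.12 and 1.12 FPKM in the controls and 1.66 and 1.65 FPKM in the ETS1 libraries, and it rose by 0.33 on the log2 scale (limma adjusted p 0.00725). SWAP70, the second gene before it, rose by 0.45 (limma adjusted p 0.00131), from 3.68 and 3.51 to 5.26 and 5.27 FPKM. AMPD3 starts 916 bases after ADM on the same strand and was at 0.0584 and 0.0801 FPKM in the controls, from 16 and 24 reads, against 0.177 and 0.221 FPKM in the ETS1 libraries, from 69 and 85 reads. MTRNR2L8, the second gene after ADM, had 2 and 9 reads in the controls against 16 and 21 with ETS1. Neither was tested.

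CALCB encodes beta-CGRP, a neuropeptide and vasodilator that prefers the RAMP1 receptor. It had the highest level of the 7 members, at 30.8 and 30.6 FPKM in the controls, from 4898 and 5321 reads, and 32.4 and 33.2 FPKM in the ETS1 libraries, from 7323 and 7394 reads. The groups did not overlap, but they were close. The log2 change was 0.093 (standard error 0.028, limma adjusted p 0.0381), and 8 of 11 alternatives ended the call. Its adjusted p ran from 0.0252 to 0.224 over them, and the authors' deposited table gives 0.198. The level stood at percentile 88.2 of the tested genes in the controls and 89.8 in the ETS1 libraries.

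What the CALCB row counts depends on the gene model. In GENCODE 29 CALCB spans chromosome 11, 14904997 to 15082342 (plus strand), with 3 transcripts, and the gene length recovered from the authors' values was 3925 bases, close to the 3937 bases of its exons there. RefSeq places CALCB at 15073593 to 15078637 on the same build. Of the 3937 exon bases, 1043 lie inside the RefSeq span and 2894 outside it, so reads from the peptide's own exons and from exons outside that span cannot be told apart in this row. CALCA, the gene of calcitonin and alpha-CGRP, overlaps this span on the opposite strand and had no read in either control, with 2 reads in ETS1 library 1 and 1 read in ETS1 library 2. INSC, a neighbouring gene looked at after the values were seen, was at 1.30 and 1.33 FPKM in the controls and 1.96 and 1.93 FPKM in the ETS1 libraries.

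As shares of the summed FPKM of the 5 peptide genes (CALCB, ADM, ADM2, CALCA and IAPP, the amylin gene), CALCB held 83.8% and 85.2% in the controls and 74.1% and 74.5% in the ETS1 libraries. The limit on what the CALCB row counts applies to each of these shares, so they are shares of rows and not of peptide transcripts. ADM2 held 2.03% and 2.18% in the controls and 12.6% and 12.5% in the ETS1 libraries, while ADM held between 12.6% and 14.2% in each of the 4 libraries. The ratio of ADM2 to ADM was 0.143 and 0.173 in the controls and 0.951 and 0.961 in the ETS1 libraries, a mean of 0.158 ± 0.0217 against 0.956 ± 0.00701 (SD, n = 2 each). In the ETS1 libraries the 2 adrenomedullin genes were thus near the same level per base. The gene lengths used were 2717 bases for ADM and 4274 bases for ADM2. In GENCODE 29 the exons of ADM together cover its whole span of 2718 bases, and 393 of these lie outside its RefSeq span. The ratio of ADM2 to ADM therefore rests on these lengths as well as on the reads. The exact Poisson 95% intervals of the reads, which cover counting error only, ran from 5.43 to 6.19 FPKM for ADM and from 5.22 to 5.81 FPKM for ADM2 in ETS1 library 1, so the order of these 2 genes was not resolved there.

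**Figure D2:**
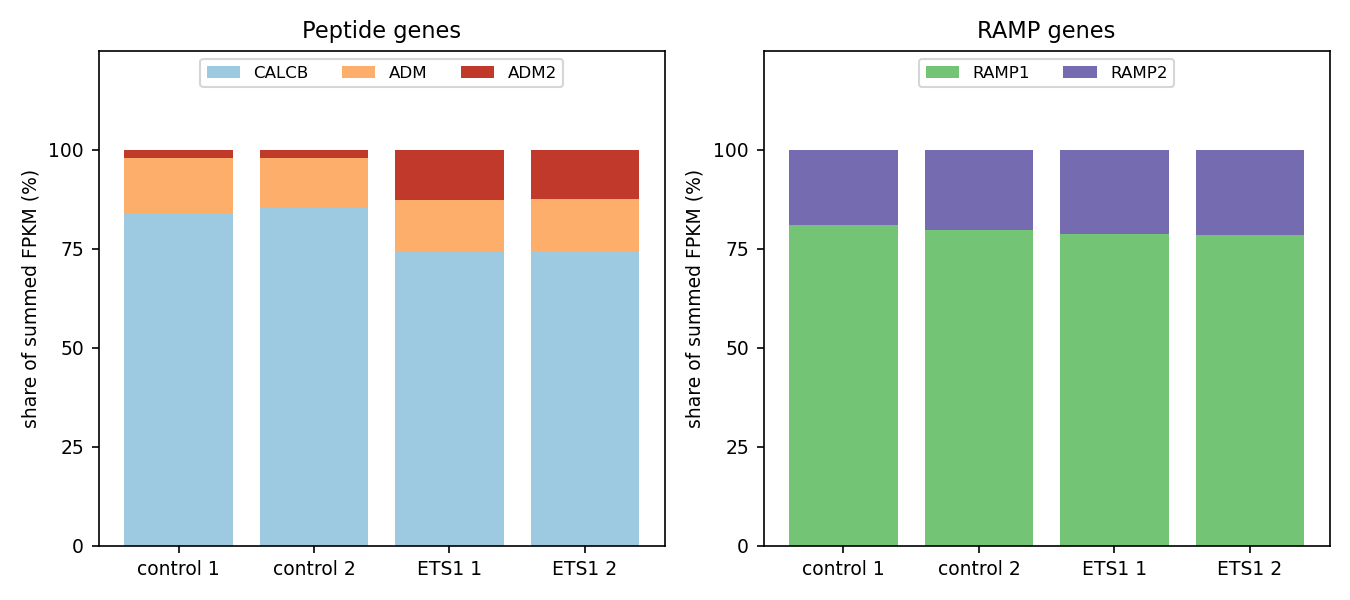
Share of the summed FPKM (y axis, percent) held by each peptide gene (left) and each RAMP gene (right) in the 4 libraries (x axis). CALCA, IAPP and RAMP3 are too low to be seen or at 0. The CALCB row also counts exons outside its RefSeq span, so the peptide shares rest on the gene model. The ADM2 share is near 2% in both controls and 12.6% and 12.5% in the ETS1 libraries, and the RAMP1 share stays between 78.4% and 81.0%.

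The receptor itself was scarce. CALCRL (chromosome 2, 187343129 to 187448460, minus strand) encodes the calcitonin receptor-like receptor shared by all these peptides. It was at 0.189 and 0.147 FPKM in the controls, from 47 and 40 reads, and at 0.278 and 0.308 FPKM in the ETS1 libraries, from 98 and 107 reads. Both ETS1 values were above both controls, with a ratio of group means of 1.74. The exact Poisson 95% intervals, of counting error only, overlapped between control library 1 (0.139 to 0.252 FPKM) and ETS1 library 1 (0.226 to 0.339 FPKM). In each other pair of a control and an ETS1 library they did not overlap. Control library 1 ended at 0.2519 FPKM, just under the start of ETS1 library 2 at 0.2523 FPKM, and control library 2 ended at 0.201 FPKM. CALCRL was under the filter, and in the fit with no filter its change of 0.15 on the log2 scale (standard error 0.036) did not pass, with a limma adjusted p of 0.0809 and a range of 0.0885 to 0.237 over 7 alternatives. The size rests on the pseudocount: with 0.1 FPKM in place of 1 the change was 0.55 (limma adjusted p 0.159). An antisense gene and a pseudogene overlap CALCRL on the plus strand, and the pseudogene, GAPDHP59, had 0 reads in each library.

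RAMP1 (chromosome 2, 237858893 to 237912114, plus strand), the partner that makes CALCRL a CGRP receptor, had the highest level of the receptor genes. It was at 7.20 and 7.28 FPKM in the controls, from 358 and 396 reads, and at 9.71 and 10.4 FPKM in the ETS1 libraries, from 686 and 723 reads. The controls were nearly equal and both ETS1 libraries were higher. RAMP1 rose by 0.42 in log2(FPKM + 1) (standard error 0.042, limma adjusted p 0.00157), and the ratio of means was 1.39. Over 11 alternatives the adjusted p ran from 0.000444 to 0.0134.

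RAMP2 (chromosome 17, 42758447 to 42763041, plus strand), the partner that makes CALCRL an adrenomedullin receptor, was at 1.69 and 1.86 FPKM in the controls, from 78 and 94 reads, and at 2.63 and 2.86 FPKM in the ETS1 libraries, from 173 and 185 reads. Again both ETS1 libraries were above both controls. RAMP2 rose by 0.43 on the log2 scale (standard error 0.062, limma adjusted p 0.00405), a ratio of means of 1.55, and its adjusted p ran from 0.0041 to 0.0319 over 10 alternatives. RAMP2-AS1, a non-coding gene, overlaps it on the minus strand and rose by 0.41 (limma adjusted p 0.00559), from 1.07 and 0.938 to 1.64 and 1.67 FPKM. The use of strand in counting is not given in the sources used here, so reads of RAMP2 and RAMP2-AS1 cannot be told apart where they overlap. Of the 1148 exon bases of RAMP2 in GENCODE 29, 381 lie outside its RefSeq span.

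RAMP3 (chromosome 7, 45157791 to 45186302, plus strand), the partner of the second adrenomedullin receptor, had 0 reads in each of the 4 libraries. With 3 reads as the limit that a count of 0 allows and the GENCODE 29 exon length of 1427 bases, a level of up to 0.0519 and 0.0475 FPKM in the controls and 0.0366 and 0.0371 FPKM in the ETS1 libraries is allowed. The exact two-sided Poisson 95% intervals, as used for the other members, end higher, at 0.0638 and 0.0584 FPKM and then 0.045 and 0.0456 FPKM. RAMP1 held 81.0% and 79.7% of the summed RAMP FPKM in the controls and 78.7% and 78.4% in the ETS1 libraries, and RAMP2 held the rest. Per length, RAMP1 was at 38.0 and 49.4 times the level of CALCRL in the controls and 34.9 and 33.7 times in the ETS1 libraries, and RAMP2 at 8.90 and 12.6 times and then 9.47 and 9.27 times. Bulk RNA does not show whether few cells hold the CALCRL transcripts or all cells hold few.

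The order of the levels was CALCB, RAMP1, ADM, RAMP2, ADM2, CALCRL and RAMP3 in the controls. In the ETS1 libraries ADM2 stood above RAMP2, and the other places were kept. The ranges of neighbours in this order did not overlap between libraries of 1 group, with n = 2 and the counting and gene length limits on ADM and ADM2 given above. The limit on what the CALCB row counts holds here too.

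**Figure D3:**
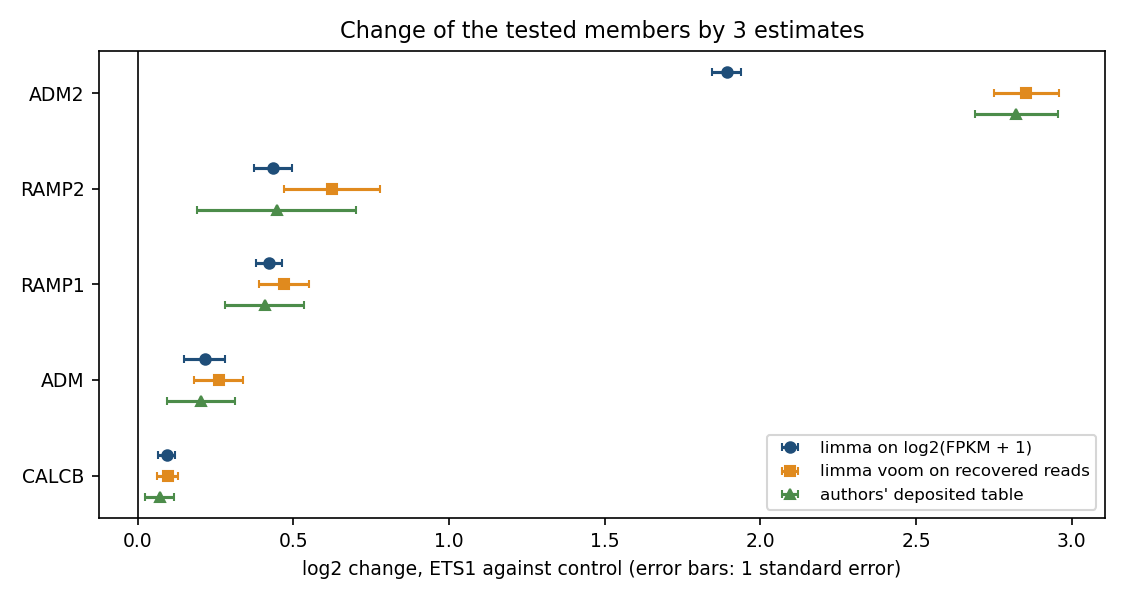
Log2 change, ETS1 against control (x axis), of the 5 members that passed the filter (y axis) by limma on log2(FPKM + 1), by limma voom on recovered reads and in the authors' deposited table; bars are 1 standard error. ADM2, picked for its rise, is shown as a description. ADM2 lies at 1.89, 2.85 and 2.82, RAMP1 and RAMP2 lie between 0.41 and 0.62, and CALCB lies below 0.1 in all 3.

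Other genes of the pathway were counted in lists. Of the other genes listed as calcitonin family ligands or as receptor parts, CRCP, a small protein that couples CALCRL to its G protein, was the one that reached the filter, at 8.71 and 8.85 FPKM in the controls and 7.66 and 8.36 FPKM in the ETS1 libraries (change -0.12, limma adjusted p 0.086). CALCR, the calcitonin receptor, was at 0.117 and 0.0506 FPKM in the controls, from 19 and 9 reads, and 0.13 and 0.11 FPKM in the ETS1 libraries, from 30 and 25 reads. IAPP had at most 1 read in any library. Of 15 other receptors that RAMPs can bind, 2 reached the filter, VIPR1 and GIPR, and neither was called.

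Of the 17 genes for decoy receptors, peptide processing and clearance, 10 were tested, with 4 called higher (40%), 3 lower (30%) and a median change of 0.15. Over all genes tested the shares were 30.7% and 28.4% and the median 0.016, and these stand as the background of each list that follows. Without ETS1 library 1 the number called lower was 1. PAM makes the C-terminal amide that adrenomedullin and CGRP need for activity. It was at 8.10 and 7.94 FPKM in the controls and 11.7 and 11.2 FPKM in the ETS1 libraries, and it rose by 0.47 (limma adjusted p 0.00095). CPE, a carboxypeptidase of prohormone maturation, rose by 0.42 (limma adjusted p 0.000702), from 20.5 and 20.2 to 27.7 and 27.3 FPKM. IDE, the insulin-degrading enzyme, rose by 0.27 and ECE2, an endothelin-converting enzyme, fell by 0.42 (limma adjusted p 0.00574 and 0.0047). The decoy receptor genes ACKR3 and GPR182 were at most at 0.0313 FPKM in any library.

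For signalling, 24 of 35 genes of the stimulatory G protein and cyclic AMP were tested, with 9 called higher (37.5%), 6 lower (25%) and a median change of 0.070, shares near those of 30.7% and 28.4% over all genes tested. GNAS, the G protein alpha subunit, was at 134 and 131 FPKM in the controls and 140 and 138 FPKM in the ETS1 libraries and did not pass (change 0.071, limma adjusted p 0.0734), though it passed by voom on recovered reads (0.072, limma adjusted p 0.036). PRKACB, a catalytic subunit of protein kinase A, and ADCY6, an adenylyl cyclase, each rose by 0.44 (limma adjusted p 0.00155 and 0.00127). PDE4A, which degrades cyclic AMP, fell by 0.46 and PRKAR1B, a regulatory subunit of protein kinase A, fell by 0.45 (limma adjusted p 0.004 and 0.0061). The number called higher was 4 with no filter, 4 at a mean of at least 5 FPKM and 2 without ETS1 library 2, and the number called lower was 3 at a mean of at least 5 FPKM. Of 9 desensitisation genes, 8 were tested, with 1 called higher (12.5%), 3 lower (37.5%) and a median of -0.078, beside 30.7% and 28.4% over all genes tested. GRK6, a kinase of activated receptors, fell by 0.36 and SLC9A3R1, a scaffold of receptor recycling, fell by 0.35 (limma adjusted p 0.000965 and 0.00131). ADRBK1, the gene of GRK2, fell by 0.21 (limma adjusted p 0.00358). ADRBK2, the gene of GRK3, was the one called higher (0.15, limma adjusted p 0.0287), a call lost with no filter (0.0673), with the replicate block (0.0633), without control library 2 (0.0907), without ETS1 library 1 (0.149) and without ETS1 library 2 (0.105).

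As background, the stress factor ATF4 is known to induce ADM2 and the hypoxia factor HIF1A to induce ADM, and lists of their targets were counted. All 22 genes of the ATF4 list were tested, with 9 called higher (40.9%), 5 lower (22.7%) and a median change of 0.069, beside 30.7% and 28.4% over all genes tested. ATF4 itself was at 548 and 576 FPKM in the controls and 600 and 587 FPKM in the ETS1 libraries and did not pass (change 0.078, limma adjusted p 0.124). It passed by voom on recovered reads (0.079, limma adjusted p 0.0454), and without control library 1 its change was 0.043 (limma adjusted p 0.398). DDIT4, an inhibitor of mTORC1, and NUPR1, a stress-induced chromatin protein, each rose by 0.82 (limma adjusted p 0.000505 and 0.000631), ATF3 by 0.69 (0.000439) and SLC7A11, the cystine transporter, by 0.55 (0.000771). The 5 called lower were SLC7A5 (-0.30), DDIT3 (-0.18), SESN2 (-0.18), ASNS (-0.11) and SLC3A2 (-0.099), with limma adjusted p from 0.00113 to 0.0435, and 3 genes were called lower with no filter, with the replicate block, without control library 1, without control library 2 or without ETS1 library 2. In the hypoxia list 15 of 18 genes were tested, with 6 called higher (40%), 3 lower (20%) and a median of 0.076, beside 30.7% and 28.4% over all genes tested. VEGFA rose by 0.51, BNIP3, a mitophagy receptor, by 0.44 and KDM3A, a histone demethylase, by 0.36, while the glucose transporter gene SLC2A1 fell by 0.30 (limma adjusted p 0.00106, 0.000886, 0.00281 and 0.00183). HIF1A was at 10.1 and 10.2 FPKM in the controls and 10.7 and 11.7 FPKM in the ETS1 libraries (change 0.13, limma adjusted p 0.0741). It passed without ETS1 library 1 (0.19, limma adjusted p 0.0388) and by voom on recovered reads (0.14, limma adjusted p 0.0285), and without ETS1 library 2 its change was 0.070 (limma adjusted p 0.321). EPAS1, the HIF2-alpha gene, fell by 0.22 (limma adjusted p 0.0216), a call lost with no filter (0.0793), without control library 1 (0.0675), without ETS1 library 1 (0.1) and without ETS1 library 2 (0.058). CA9, a gene used as a marker of hypoxia, was at most at 0.0637 FPKM. The 5 genes called lower in the ATF4 list, CA9, ACKR3 and GPR182 are named after their values were seen.

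**Figure D4:**
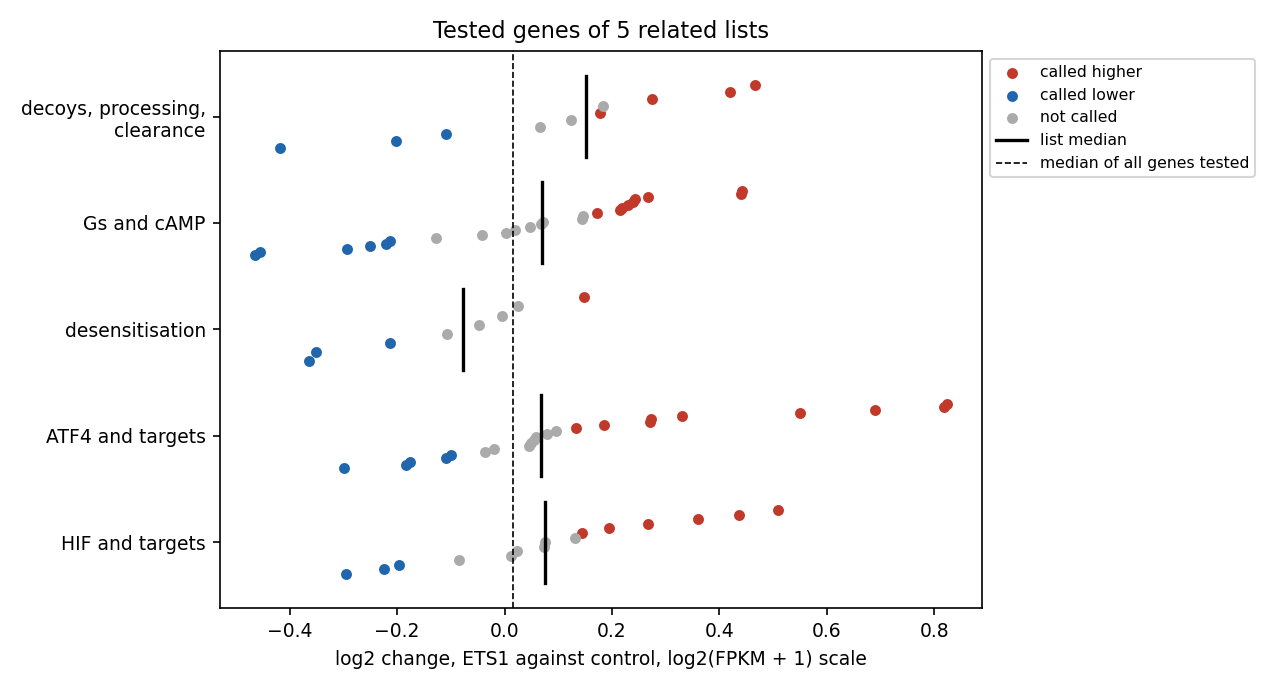
Log2 change, ETS1 against control, on the log2(FPKM + 1) scale (x axis), of every tested gene of 5 lists (y axis); points are genes coloured by call, black bars are list medians and the dashed line is the median of all genes tested, 0.016. Each list holds genes called in both directions, 29 higher (36.7%) and 20 lower (25.3%) of 79 tested in all, beside 30.7% and 28.4% of all genes tested.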

How the data were processed

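FPKM for each gene and library were computed and deposited by the authors, who name HISAT2, HTSeq, DESeq2 and hg38 (GRCh38), per the submitters' processing notes; versions, annotation and strand use are not given in the sources used here. A second table by the authors gives, per the file headers, a mean normalized count (a signal averaged over libraries), a log2 fold change with its standard error, and p-values for 16652 genes. Members and lists were chosen with earlier results of these data known. Limma 3.58.1 in R 4.3.3 was fitted to log2(FPKM + 1) with a group term and an intensity trend, two-sided. Whole reads were recovered from FPKM and the mean normalized counts; 99.7% of the values fell within 0.05 of a whole number. The smallest p of an exact permutation test of single values at this size, 2 against 2, is 0.333, two-sided. Named genes were the members, up to 4 called genes of each list with the largest change, 6 fixed pathway genes, neighbours of ADM2 and ADM, and the 5 genes closest to ADM2; other marker genes are named to account for their lists. The fit was tested on simulated data with 200 changed genes, of which 179 passed the filter. It called 176 genes, 163 changed ones and 13 unchanged ones. With no gene changed it called 0. Far fewer genes changed there than the 59.1% called here, so the simulation does not show the error rate in these data. Gene positions are from GENCODE 29 and promoter windows from RefSeq, both on GRCh38. The replicate numbers were not treated as pairs.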

Additional observations from a re-analysis of the deposited data

How the results depend on the processing

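RAMP1 and RAMP2 kept direction and call under every alternative in which they were tested; RAMP2 is under the filter of a mean of at least 5 FPKM. For ADM2 the log2 change was 2.71 with a pseudocount of 0.1 FPKM, 2.85 by voom on recovered reads and 2.82 in the authors' deposited table, since these add less or nothing to its low control level. ADM was not called with no filter (0.21, limma adjusted p 0.14), with the replicate block (0.21, limma adjusted p 0.0506) or in the authors' deposited table (0.20), and ran from 0.13 to 0.30 without 1 library. CALCB was not called with no filter (0.093), under trimmed-mean scaling (0.072), with the replicate block (0.093, limma adjusted p 0.0917) or in the authors' deposited table (0.070), and ran from 0.077 to 0.11 without 1 library, never called there. The cause of these losses was not tested. Genes called higher numbered 2562 beside 3000 lower at a mean of at least 5 FPKM, where fewer genes were tested, 4052 beside 4332 under trimmed-mean scaling, 3966 beside 4060 in the authors' deposited table and 2845 beside 2945 without ETS1 replicate 2, so lower calls outnumbered higher ones under these 4 settings. Higher calls numbered 2845 to 3962 without 1 library; list genes called higher ran from 17 to 27 without 1 library, lowest without ETS1 replicate 2. The replicate block gave 3712 higher and 3571 lower genes, and the deviations of the libraries numbered 1 from their group means had a correlation of -0.046 across genes, so the numbers are not shown to pair the libraries. Among 439 values of 41 other named genes under alternatives, 0 changed direction, 9 lost and 4 gained the threshold. Not among these 41 were SOX2, COL1A1, RAMP2-AS1, SLC7A5, DDIT3, SESN2, ASNS and SLC3A2, which are named above with a call. Read numbers were low for CALCRL, at 40 to 107 a library, and were 0 for RAMP3.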
